A study of Homo sapiens with 18 samples.

Results

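The genes that carry a cell from G2 through mitosis were followed in a human pancreatic cancer cell line treated with thapsigargin, which blocks the SERCA pump and so drains calcium from the endoplasmic reticulum. The 42 members were chosen by name from a list of G2/M and mitosis genes, made with earlier results of these data known, and were 42 of the 26485 genes in the deposited table of normalized counts. All 42 passed the filter on low values (a mean of 10 or more normalized counts over the 18 libraries), as did 13096 genes in all, and were tested. RNA libraries were sequenced from 6 groups of 3. L3.6pl cells, called Par, received a control siRNA (siCont), and a gemcitabine-resistant line derived from them, called GemR and kept in 64 nM gemcitabine, received siCont or an siRNA against the calcium sensor STIM1 (siSTIM1), each for 48 h. For the final 3 h the cells of each of these arms had either DMSO as vehicle or 500 nM thapsigargin. The 6 groups were therefore Par siCont vehicle, Par siCont thapsigargin, GemR siCont vehicle, GemR siCont thapsigargin, GemR siSTIM1 vehicle and GemR siSTIM1 thapsigargin, and all of them carried an siRNA. GemR is 1 derivative and had gemcitabine in its medium, so that resistance, the drug itself and any other difference from Par cannot be told apart.

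As background, entry into mitosis is driven by the kinase CDK1 with cyclins A and B, switched on by CDC25 phosphatases and joined by the Polo and Aurora kinases. The spindle then attaches to kinetochores, a checkpoint holds the cell until every chromosome is attached, and the anaphase-promoting complex destroys securin and the cyclins so that sister chromatids part and the cell divides. Transcripts of these genes accumulate late in the cell cycle through the MuvB complexes and FOXM1, and many are long-used markers of proliferation in tumours.

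The libraries held 8922439 to 16519239 reads in genes, as worked back from the normalized counts. STIM1, the siRNA target, stood at 457 ± 20.6 normalized counts in Par with vehicle (mean ± SD of 3 libraries, as for all normalized counts given with ±), 5890.4 ± 793 in GemR siCont and 382 ± 23.7 in GemR siSTIM1, and every siSTIM1 library lay below every GemR siCont library. Of 6 epithelial markers all 6 had a mean of at least 10, with KRT19 at 12860 to 27684 over the libraries. They were not alike: CDH1 was low with vehicle, at 172 to 263 in Par and 81.3 to 89.0 in GemR siCont. EPCAM with vehicle read 5969 to 6486 in Par and 2286 to 3386 in GemR siCont. Of 7 fibroblast markers only COL1A1 was high, and it was also higher with thapsigargin (1925 to 2173 with vehicle and 2903 to 3123 with thapsigargin in Par), while DCN and FAP were at 0 in every library. The summed list of 5 immune markers was 73.2 to 177, and that of 3 endothelial markers 114 to 282. Replicate 1 of GemR siCont with vehicle and replicate 1 of GemR siSTIM1 with thapsigargin stood apart by transcript length. In these libraries genes with longer transcripts deviated further below their group mean (Spearman rho = -0.585 and -0.507 over 12419 genes), where the other replicates of the same groups had rho of 0.399 and 0.534, and of 0.372 and 0.379, and the remaining 12 libraries -0.343 to 0.31. The median deviation of the 42 members was 0.00447 in the first and -0.0629 in the second on the log2 scale. This median mixes long and short members, so it does not show how far single members were shifted. In the first library MKI67 (12678 nt) was at the lowest value of its group, 3329, and PTTG1 (1070 nt) at the highest, 3553. A log2 fold change below is a difference of means of log2(normalized count + 1) with its standard error from limma, adjusted p-values are limma's after Benjamini-Hochberg adjustment over all 13096 genes, and a gene counts as changed at an adjusted p under 0.05. The labels do not say whether replicates came from separate cultures, so the p-values measure the spread between these libraries.

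The members were expressed at widely different levels. Per kilobase of the longest annotated transcript, the highest in Par with vehicle was CCNB1, the cyclin B1 subunit of CDK1, at 2563 ± 144 normalized counts per kb. UBE2C, the ubiquitin-conjugating enzyme of the anaphase-promoting complex, stood at 2462 ± 33.6 per kb, CDC20, an activator of that complex, at 2123 ± 69.1 and securin (PTTG1) at 1965 ± 134. Of these neighbours in the order, CCNB1 and UBE2C differed by less than the SD of CCNB1. At the low end were CENPE, a kinetochore motor, at 98.2 ± 21.2 per kb, KIF14 at 120.3 ± 7.46 and KIF18A at 121 ± 9.38, and the libraries of these 3 overlapped. In GemR siCont with vehicle PTTG1 led at 2625 ± 605 per kb and KIF18A was lowest at 82.3 ± 2.90. There CCNB1, at 2394 ± 266 per kb, and UBE2C, at 2246 ± 444, differed from PTTG1 by less than its SD. The highest PTTG1 library, at 3553 normalized counts, was replicate 1. By the sum over members, the 42 genes took 0.768 ± 0.0282% of all normalized counts in Par with vehicle, and 0.732 ± 0.0430% and 0.761 ± 0.0250% in GemR with siCont and siSTIM1.

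Thapsigargin lowered 21 to 35 of the 42 genes at 3 h, depending on the arm. In Par 21 of the 42 members fell and 2 rose, where 19.7% of all tested genes fell and 20.5% rose. In GemR siCont 35 members fell and 1 rose, against 15.8% and 17.9% of all genes. In GemR siSTIM1 32 fell and 1 rose, against 11.9% and 12.5%. The members had a median log2 fold change of -0.22 in Par, and of -0.50 and -0.44 in the siCont and siSTIM1 arms of GemR, beside -0.0179, -0.0251 and -0.0114 for all genes tested. The members' share of the library was 0.614 ± 0.0123% with thapsigargin in Par, and 0.528 ± 0.0144% and 0.546 ± 0.0407% in the siCont and siSTIM1 arms of GemR, below every vehicle library of the same arm. The total of normalized counts was higher with thapsigargin in each arm (1.42e+07 to 1.43e+07 against 1.31e+07 to 1.32e+07 in Par). Part of the lower share therefore lies in the total. The members' sum was lower too, at 86376 to 88971 with thapsigargin and 97573 to 103222 with vehicle in Par. In bulk RNA of this kind, fewer cells in G2 or mitosis and less of these transcripts per cell cannot be told apart.

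**Figure D1:**
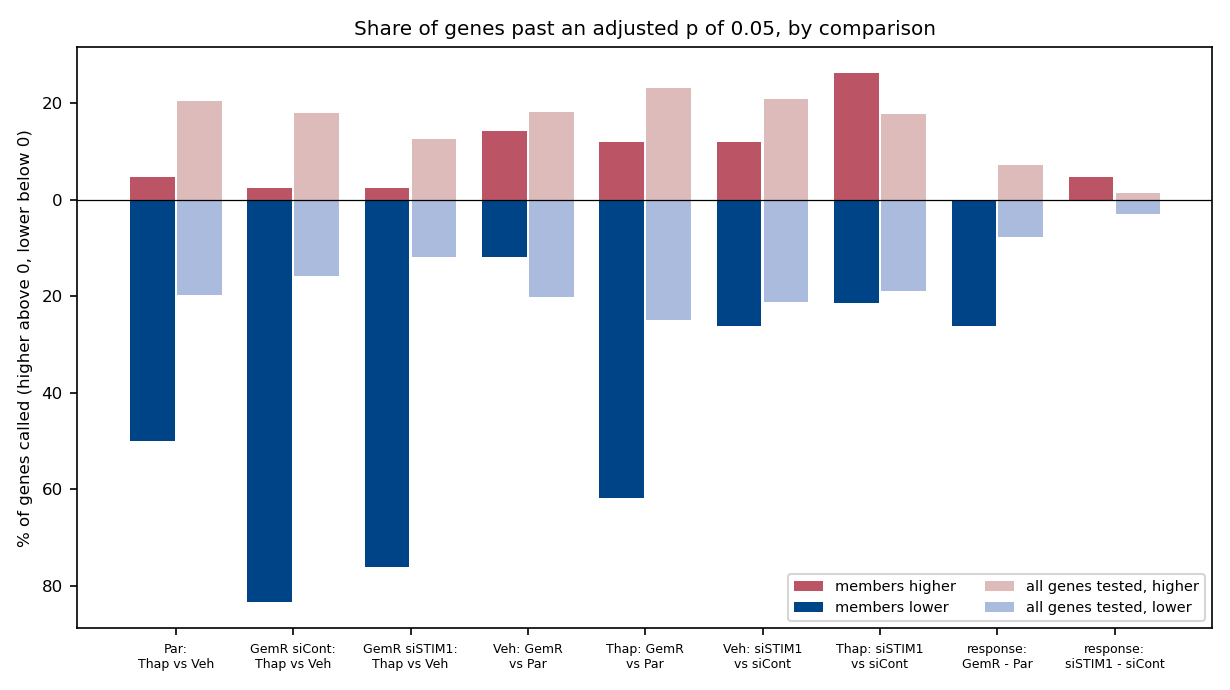
Percent of genes called higher (above 0) and lower (below 0) at an adjusted p under 0.05 for the 42 members (dark bars) and for all 13096 genes tested (pale bars) in the 9 comparisons. The dark bars below 0 exceed the pale ones most in the 3 thapsigargin responses and in GemR against Par under thapsigargin, and in vehicle the members' bars lie near or under those of all genes.

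The falls overlapped between arms. A set of 18 members was lower in all 3 responses, which is 85.7% of the Par list, 51.4% of the GemR siCont list and 56.2% of the GemR siSTIM1 list. A further 11 members were lower in both GemR arms and not called in Par. The matching shares over all genes were not counted. With 35 and 32 of the 42 members lower in the GemR arms, much of this overlap follows from the sizes of the lists. At least 1 arm lowered 38 members, and the 4 that fell in none were FOXM1, NEK2, KIF14 and ECT2. The Par and GemR libraries are separate samples, and the 2 GemR arms have their own vehicle libraries. Vehicle and thapsigargin libraries did not overlap for 32 members in Par, 38 in GemR siCont and 35 in its siSTIM1 arm, where 57.9%, 42.6% and 38.3% of all genes were so separated. Without replicate 1 of GemR siCont with vehicle the members' median in that arm, and without replicate 1 of GemR siSTIM1 with thapsigargin that in its arm, were -0.487 and -0.382. With each library of the groups compared left out in turn, 16 of 21, 31 of 35 and 29 of 32 of the falls kept their call every time. All checks below that leave out a single library took it from the groups compared. Counts of members at other settings are given without the share of all genes called at that setting. A changed count is therefore not read as particular to the members.

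**Figure D2:**
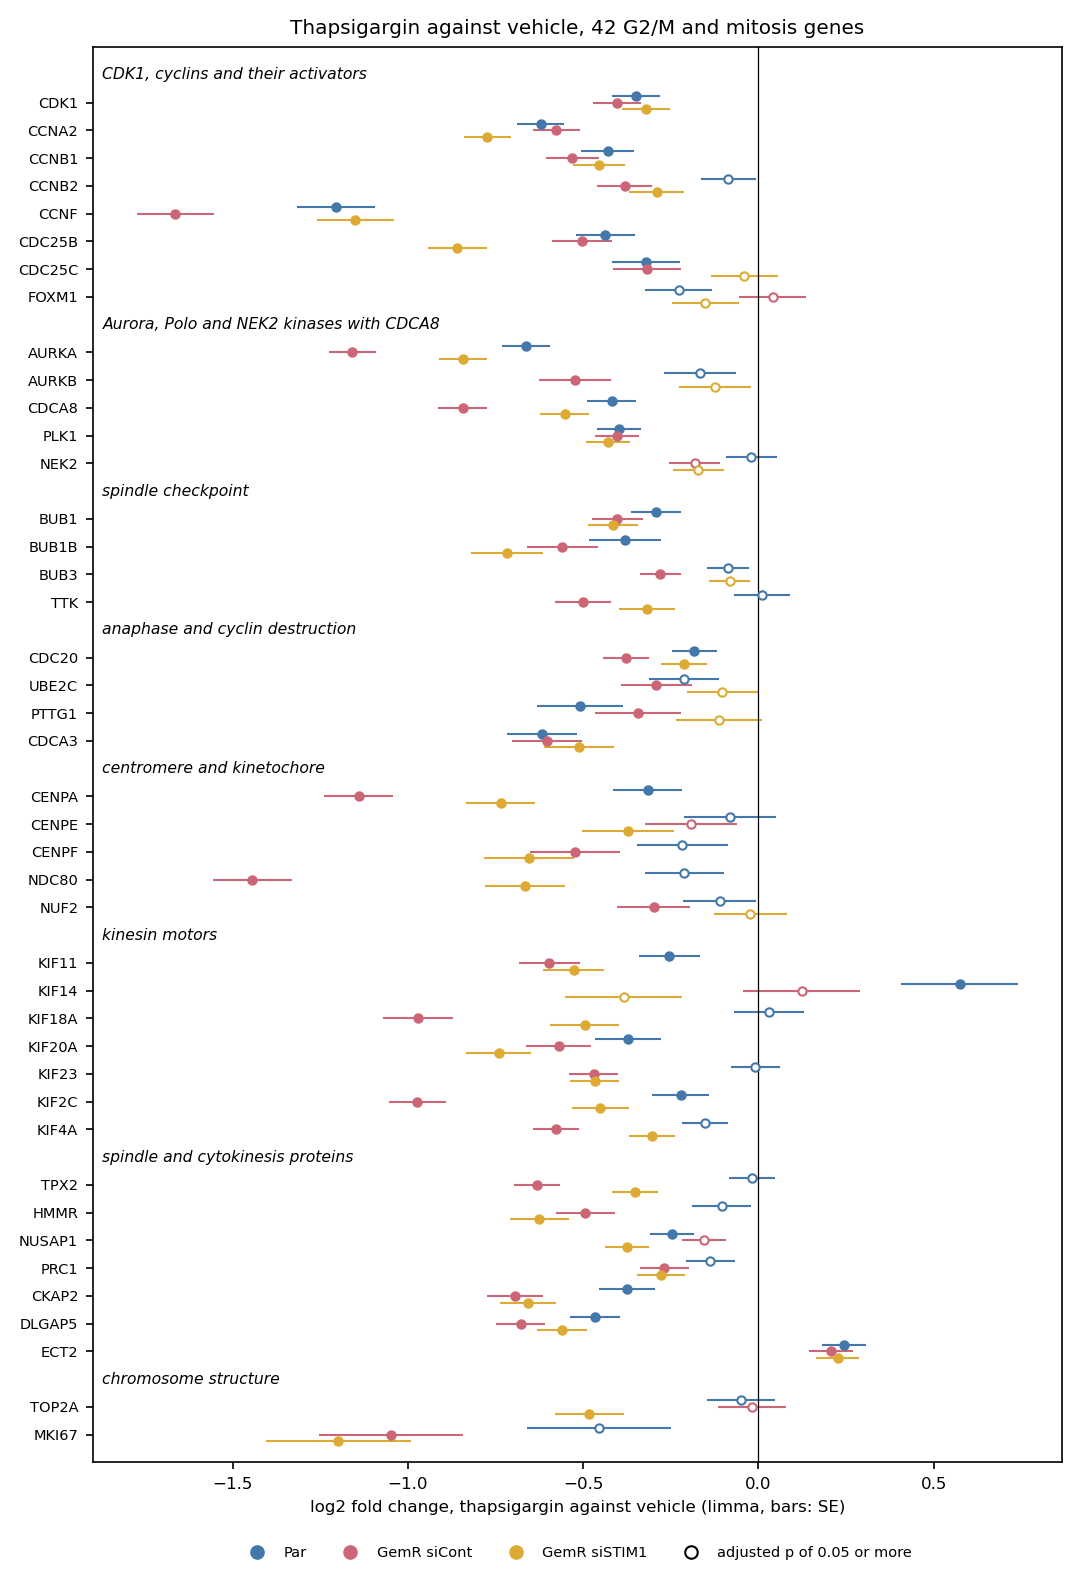
Log2 fold change with thapsigargin against vehicle for each of the 42 members, grouped by role, in Par (blue), GemR siCont (red) and GemR siSTIM1 (yellow). Bars are standard errors and open points had an adjusted p of 0.05 or more; CCNF lies farthest left in Par and GemR siCont, and ECT2 lies right of 0 in all 3.

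Promoters of late cell-cycle genes often hold a CCAAT box and a CHR element, so the promoter letters of the members were read from RefSeq (GRCh38.p14, 250 bases before to 50 after the gene start). Of the 42 members 36 matched an entry in that table. The CHR letters TTTGAA, on either strand, occurred in 24 of these 36 promoters (66.67%), in 15.43% of all 27305 promoters of the table and in 9.454% of the 9784 promoters of tested genes. CCAAT on either strand occurred in 28 (77.78%), against 35.7% and 36.8%. Both together stood in 21 member promoters (58.33%), against 6.083% and 4.078%. Matches of the 2 motifs can share at most 1 end base, and a match is a description of the letters, not a measured binding site. In GemR siCont the 24 members with TTTGAA had a median thapsigargin response of -0.51 and 20 of them fell, and the 12 without it had a median of -0.51 and 10 fell. In Par 11 of the 24 fell (median -0.21) and 9 of the 12 (-0.35), and in GemR siSTIM1 21 of the 24 (-0.49) and 8 of the 12 (-0.43). In siSTIM1 against siCont with vehicle, 4 of the 24 and 7 of the 12 were lower (medians 0.06 and -0.31). No test compared these classes. Of the 11 members whose response differed between GemR siCont and Par, 7 hold TTTGAA and 1 does not, and 3 were not matched. The 5 promoters printed here are examples, and capitals mark the matches to both motifs on either strand. In CCNB2, at chr15:59104896-59105195 (plus strand), and PLK1, at chr16:23678639-23678938 (plus strand), the CHR letters begin at -29 from the start. CCNB1, at chr5:69166900-69167199 (plus strand), fell and holds none of them in this window. NDC80, at chr18:2571307-2571606 (plus strand), differed most in response between the cell lines, and holds the CHR letters on the reverse strand at the start. ECT2, at chr3:172750476-172750775 (plus strand), rose.
CCNB2: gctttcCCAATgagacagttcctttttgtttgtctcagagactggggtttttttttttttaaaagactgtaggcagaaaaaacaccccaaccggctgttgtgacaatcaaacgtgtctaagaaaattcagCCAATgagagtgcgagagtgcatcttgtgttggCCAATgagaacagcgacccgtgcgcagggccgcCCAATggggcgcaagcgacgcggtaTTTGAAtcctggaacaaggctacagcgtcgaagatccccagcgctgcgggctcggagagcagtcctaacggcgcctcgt
PLK1: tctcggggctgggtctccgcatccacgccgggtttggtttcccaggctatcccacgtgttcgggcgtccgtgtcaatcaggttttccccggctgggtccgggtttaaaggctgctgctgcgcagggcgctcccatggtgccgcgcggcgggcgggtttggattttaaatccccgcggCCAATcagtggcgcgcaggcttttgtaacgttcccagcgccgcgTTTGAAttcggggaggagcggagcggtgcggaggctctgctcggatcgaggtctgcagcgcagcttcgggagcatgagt
CCNB1: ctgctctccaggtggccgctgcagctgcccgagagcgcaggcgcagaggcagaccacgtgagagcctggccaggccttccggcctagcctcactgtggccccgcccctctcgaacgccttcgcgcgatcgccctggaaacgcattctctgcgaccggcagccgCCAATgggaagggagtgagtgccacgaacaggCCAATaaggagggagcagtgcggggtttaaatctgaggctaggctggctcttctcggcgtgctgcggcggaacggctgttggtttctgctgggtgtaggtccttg
NDC80: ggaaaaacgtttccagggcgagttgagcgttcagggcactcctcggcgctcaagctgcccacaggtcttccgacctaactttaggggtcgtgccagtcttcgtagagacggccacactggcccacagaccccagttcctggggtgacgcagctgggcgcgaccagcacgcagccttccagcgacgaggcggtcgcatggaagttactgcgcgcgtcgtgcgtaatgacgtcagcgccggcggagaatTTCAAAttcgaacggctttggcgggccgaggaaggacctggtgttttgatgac
ECT2: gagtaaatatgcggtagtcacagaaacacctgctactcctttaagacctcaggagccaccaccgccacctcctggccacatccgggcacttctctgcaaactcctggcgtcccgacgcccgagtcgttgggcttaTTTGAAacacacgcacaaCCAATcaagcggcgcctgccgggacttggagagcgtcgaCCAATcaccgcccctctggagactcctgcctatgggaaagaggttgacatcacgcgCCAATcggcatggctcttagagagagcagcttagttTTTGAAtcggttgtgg

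Cyclin F, the substrate receptor of an SCF ubiquitin ligase in G2, fell farthest among the CDK1 and cyclin genes. Of the 8 genes of CDK1, cyclins and their activators, 6 fell in Par and, within GemR, 7 with siCont and 6 with siSTIM1. CCNF (GRCh38, GENCODE 29: chromosome 16, 2429394 to 2458854) had normalized counts of 1058, 963 and 1171 with vehicle and 403, 467 and 515 with thapsigargin in Par, and of 804, 918 and 884 with vehicle and 276, 277 and 266 with thapsigargin in GemR siCont. In GemR siSTIM1 they were 947, 929 and 870.0 with vehicle and 393, 498 and 356 with thapsigargin. Every thapsigargin library lay below every vehicle library in each arm, and the level was 2.31-fold lower in Par (-1.21 ± 0.11, adjusted p = 4.4e-08). It was 3.17-fold lower in GemR siCont (-1.66 ± 0.11, adjusted p = 4.5e-10) and 2.22-fold lower in GemR siSTIM1 (-1.15 ± 0.11, adjusted p = 1.3e-07). Cyclin A2, which pairs with CDK1 and CDK2, read 2557, 2638 and 2576 with vehicle and 1694, 1674 and 1684 with thapsigargin in Par and fell there by 0.62 ± 0.07 on the log2 scale (adjusted p = 4.3e-07). It fell in GemR siCont (-0.58 ± 0.07, adjusted p = 1.2e-06) and in GemR siSTIM1 (-0.77 ± 0.07, adjusted p = 3.5e-08), where the thapsigargin libraries read 1007, 1253 and 1085. CDK1 itself fell in all 3 arms, with log2 fold changes of -0.35 ± 0.07 in Par and, within GemR, -0.40 ± 0.07 for siCont and -0.32 ± 0.07 for siSTIM1. CCNB1 fell in all 3 as well, at -0.43 ± 0.07 in Par and, within GemR, -0.53 ± 0.07 for siCont and -0.45 ± 0.07 for siSTIM1. CCNB2, the second B-type cyclin, was at -0.09 ± 0.08 in Par (adjusted p = 0.411) and fell in GemR siCont (-0.38 ± 0.08) and GemR siSTIM1 (-0.29 ± 0.08), and the last call was lost at adjusted p = 0.0706 to 0.0753 without any 1 of GemR siSTIM1 vehicle replicate 2 and GemR siSTIM1 thapsigargin replicate 3.

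Of the phosphatase genes that activate CDK1, CDC25B fell in each arm, at -0.44 ± 0.08 in Par and, within GemR, -0.50 ± 0.08 for siCont and -0.86 ± 0.08 for siSTIM1. Its counts were 2583, 2084 and 2622 with vehicle and 1779, 1790.3 and 1786 with thapsigargin in Par and 1230.1, 1389 and 1216 with vehicle and 730.4, 749.5 and 634 with thapsigargin in GemR siSTIM1. The thapsigargin libraries of Par lay close together and below all vehicle libraries. CDC25C fell in Par (-0.32 ± 0.10, adjusted p = 0.0120) and GemR siCont (-0.32 ± 0.10, adjusted p = 0.0150), and was at -0.04 ± 0.10 in GemR siSTIM1 (adjusted p = 0.822). Its call in Par was lost at adjusted p = 0.0711 without Par vehicle replicate 1, and in GemR siCont at adjusted p = 0.0676 to 0.0759 without any 1 of GemR siCont vehicle replicate 1 and GemR siCont thapsigargin replicates 1 and 3. FOXM1, a transcription factor of the G2/M programme, passed in no arm and was at -0.23 ± 0.10 in Par and, within GemR, 0.04 ± 0.10 for siCont and -0.15 ± 0.10 for siSTIM1.

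Among the mitotic kinases AURKA, which builds the spindle poles, fell most. Of the 5 Aurora, Polo and NEK2 genes with CDCA8, 3 fell in Par and, within GemR, 4 with siCont and 3 with siSTIM1. Its normalized counts were 1718, 1606 and 1729 with vehicle and 1026, 1066 and 1099 with thapsigargin in Par, and 1554, 1523 and 1430.0 with vehicle and 657, 674 and 686 with thapsigargin in GemR siCont. In GemR siSTIM1 they were 1359, 1534 and 1282 with vehicle and 783, 782 and 756 with thapsigargin. No thapsigargin library overlapped a vehicle library, and the falls were 1.58-fold, 2.23-fold and 1.79-fold in that order (adjusted p = 2.1e-07, 7.4e-11 and 1.3e-08). The log2 fold changes were -0.66 ± 0.07 in Par and, within GemR, -1.16 ± 0.07 for siCont and -0.84 ± 0.07 for siSTIM1. PLK1, the Polo kinase that triggers mitotic entry and exit, fell in all 3 arms, at -0.40 ± 0.06 in Par and, within GemR, -0.40 ± 0.06 for siCont and -0.43 ± 0.06 for siSTIM1. CDCA8 (borealin), a partner of Aurora B in the chromosomal passenger complex, fell too, at -0.42 ± 0.07 in Par and, within GemR, -0.84 ± 0.07 for siCont and -0.55 ± 0.07 for siSTIM1. AURKB fell in GemR siCont (-0.52 ± 0.10, adjusted p = 5.2e-04) and was at -0.17 ± 0.10 in Par and -0.12 ± 0.10 in GemR siSTIM1 without passing. NEK2, a centrosome kinase, was at -0.02 ± 0.07 in Par and, within GemR, -0.18 ± 0.07 for siCont and -0.17 ± 0.07 for siSTIM1 and passed in none.

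The spindle checkpoint genes followed in part. Of the 4 checkpoint members, 2 fell in Par and, within GemR, 4 with siCont and 3 with siSTIM1. BUB1, a kinase that recruits the checkpoint to kinetochores, fell in all arms (-0.29 ± 0.07 in Par and, within GemR, -0.40 ± 0.07 for siCont and -0.41 ± 0.07 for siSTIM1). BUB1B, which encodes the CDC20 inhibitor BUBR1, did so as well (-0.38 ± 0.10 in Par and, within GemR, -0.56 ± 0.10 for siCont and -0.72 ± 0.10 for siSTIM1). BUB3, the adaptor of both, fell in GemR siCont (-0.28 ± 0.06, adjusted p = 0.00106) and was at -0.09 ± 0.06 in Par and -0.08 ± 0.06 in GemR siSTIM1. TTK (MPS1), the kinase at the head of the checkpoint, read 1140.1, 1088 and 1109.9 with vehicle and 1188, 1053 and 1126 with thapsigargin in Par, where the 2 treatments overlapped. In GemR siCont the counts were 1149, 1127 and 1085 with vehicle and 780.3, 815 and 781 with thapsigargin, a fall of 1.41-fold (-0.50 ± 0.08, adjusted p = 5.6e-05), and TTK fell in GemR siSTIM1 too (-0.32 ± 0.08).

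Genes of anaphase and cyclin destruction fell with less uniform calls. Of the 4 members, 3 fell in Par and, within GemR, 4 with siCont and 2 with siSTIM1. CDCA3, a trigger of mitotic entry that acts with an SCF ligase, fell in every arm, at -0.62 ± 0.10 in Par and, within GemR, -0.60 ± 0.10 for siCont and -0.51 ± 0.10 for siSTIM1. Its Par libraries read 593, 506 and 554 with vehicle and 320.1, 358 and 400.3 with thapsigargin, without overlap. PTTG1 (securin), which holds separase inactive until anaphase, fell in Par (-0.51 ± 0.12, adjusted p = 0.00256) with counts of 2117, 2238 and 1954 with vehicle and 1432, 1489 and 1508 with thapsigargin. In GemR siCont PTTG1 was at -0.34 ± 0.12, adjusted p = 0.0367, and the call was lost at adjusted p = 0.0567 to 0.209 without any 1 of GemR siCont vehicle replicate 1 and GemR siCont thapsigargin replicates 1, 2 and 3. Its log2 fold change was -0.16 without GemR siCont vehicle replicate 1. It was at -0.11 ± 0.12 in GemR siSTIM1, not past the threshold. CDC20 passed in all 3 arms (-0.18 ± 0.07 in Par and, within GemR, -0.38 ± 0.07 for siCont and -0.21 ± 0.07 for siSTIM1). Its Par call was lost at adjusted p = 0.0557 to 0.134 without any 1 of Par vehicle replicates 1 and 3 and Par thapsigargin replicates 1 and 3, and its GemR siSTIM1 call at adjusted p = 0.0537 to 0.128 without any 1 of GemR siSTIM1 vehicle replicates 2 and 3 and GemR siSTIM1 thapsigargin replicates 2 and 3. UBE2C passed in GemR siCont (-0.29 ± 0.10, adjusted p = 0.0323), lost at adjusted p = 0.0545 to 0.187 without any 1 of GemR siCont vehicle replicate 1 and GemR siCont thapsigargin replicates 1, 2 and 3, and was at -0.21 ± 0.10 in Par and -0.10 ± 0.10 in GemR siSTIM1. Without GemR siCont vehicle replicate 1 the UBE2C value in that arm was -0.14.

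At the centromere and kinetochore NDC80 and CENPA fell most in GemR. Of the 5 members, 1 fell in Par and, within GemR, 4 with siCont and 4 with siSTIM1. NDC80 (HEC1; chromosome 18, 2571511 to 2616635), the microtubule-binding subunit of the outer kinetochore, read 680.2, 574 and 608 with vehicle and 509, 529.8 and 567 with thapsigargin in Par, a log2 fold change of -0.21 ± 0.11 that did not pass (adjusted p = 0.146). In GemR siCont it read 905, 699 and 701 with vehicle and 247, 283 and 313 with thapsigargin. In GemR siSTIM1 it read 1025, 1123 and 905 with vehicle and 670.1, 672 and 579 with thapsigargin. NDC80 was 2.72-fold lower with thapsigargin in GemR siCont (-1.44 ± 0.11, adjusted p = 5.3e-09) and 1.59-fold lower in GemR siSTIM1 (-0.67 ± 0.11, adjusted p = 1.7e-04), with no overlap in either. NUF2, the partner of NDC80 in the same complex, was at -0.11 ± 0.10 and -0.02 ± 0.10 in Par and GemR siSTIM1 and passed in GemR siCont (-0.30 ± 0.10, adjusted p = 0.0324), lost at adjusted p = 0.0913 to 0.16 without any 1 of GemR siCont vehicle replicate 1 and GemR siCont thapsigargin replicates 1 and 3. Without GemR siCont vehicle replicate 1 NUF2 was at -0.18 there. CENPA, the histone H3 variant that marks centromeres, fell in all arms at -0.32 ± 0.10 in Par and, within GemR, -1.14 ± 0.10 for siCont and -0.74 ± 0.10 for siSTIM1. Its call in Par was lost at adjusted p = 0.0849 without Par vehicle replicate 1. CENPF fell in both GemR arms (-0.52 ± 0.13 and -0.65 ± 0.13) and was at -0.22 ± 0.13 in Par. CENPE passed in GemR siSTIM1 (-0.37 ± 0.13, adjusted p = 0.0452; -0.08 ± 0.13 in Par and -0.19 ± 0.13 in GemR siCont), and there it was lost at adjusted p = 0.0529 to 0.257 without any 1 of GemR siSTIM1 vehicle replicates 1, 2 and 3 and GemR siSTIM1 thapsigargin replicate 1. Without GemR siSTIM1 thapsigargin replicate 1 CENPE was at -0.22.

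Kinesin motors held members that moved in opposite ways. Of the 7 kinesins, 3 fell in Par and, within GemR, 6 with siCont and 6 with siSTIM1. KIF18A, which dampens chromosome movement on the metaphase spindle, read 452, 392 and 448 with vehicle and 449.5, 413 and 454 with thapsigargin in Par, where the 2 treatments overlapped (0.03 ± 0.10, adjusted p = 0.834). In GemR siCont it read 305, 291 and 285 with vehicle and 140.1, 166 and 143 with thapsigargin, 1.96-fold lower (-0.97 ± 0.10, adjusted p = 2.4e-07), and in GemR siSTIM1 it fell by 0.50 ± 0.10 on the log2 scale. KIF2C (MCAK), a microtubule depolymerase at centromeres, fell to 899.7, 1005 and 929 from 1886, 1809 and 1863 in GemR siCont (-0.97 ± 0.08, adjusted p = 1.3e-08). It also passed in GemR siSTIM1 (-0.45 ± 0.08) and in Par (-0.22 ± 0.08, adjusted p = 0.0352), where it was lost at adjusted p = 0.0899 to 0.125 without any 1 of Par vehicle replicates 1 and 3 and Par thapsigargin replicates 1 and 2. KIF20A, needed for cytokinesis, fell at -0.37 ± 0.09 in Par and, within GemR, -0.57 ± 0.09 for siCont and -0.74 ± 0.09 for siSTIM1. KIF11 (Eg5), which separates the spindle poles, fell at -0.25 ± 0.09 in Par and, within GemR, -0.60 ± 0.09 for siCont and -0.53 ± 0.09 for siSTIM1, and the Par call was lost at adjusted p = 0.0545 to 0.0999 without any 1 of Par vehicle replicates 1 and 3 and Par thapsigargin replicates 1 and 2. KIF23, a subunit of centralspindlin, fell in both GemR arms (-0.47 ± 0.07 and -0.47 ± 0.07) and was at -0.01 ± 0.07 in Par. KIF4A, a chromosome-bound motor, fell in both as well (-0.58 ± 0.07 and -0.30 ± 0.07; -0.15 ± 0.07 in Par). KIF14, a cytokinesis motor that binds PRC1 and citron kinase, rose in Par from 837, 852 and 937 to 1368, 1247 and 1291, above all vehicle libraries and 1.49-fold higher (0.57 ± 0.17, adjusted p = 0.00977). In GemR siCont KIF14 was at 0.12 ± 0.17 and in GemR siSTIM1 at -0.38 ± 0.17, neither past the threshold.

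**Figure D3:**
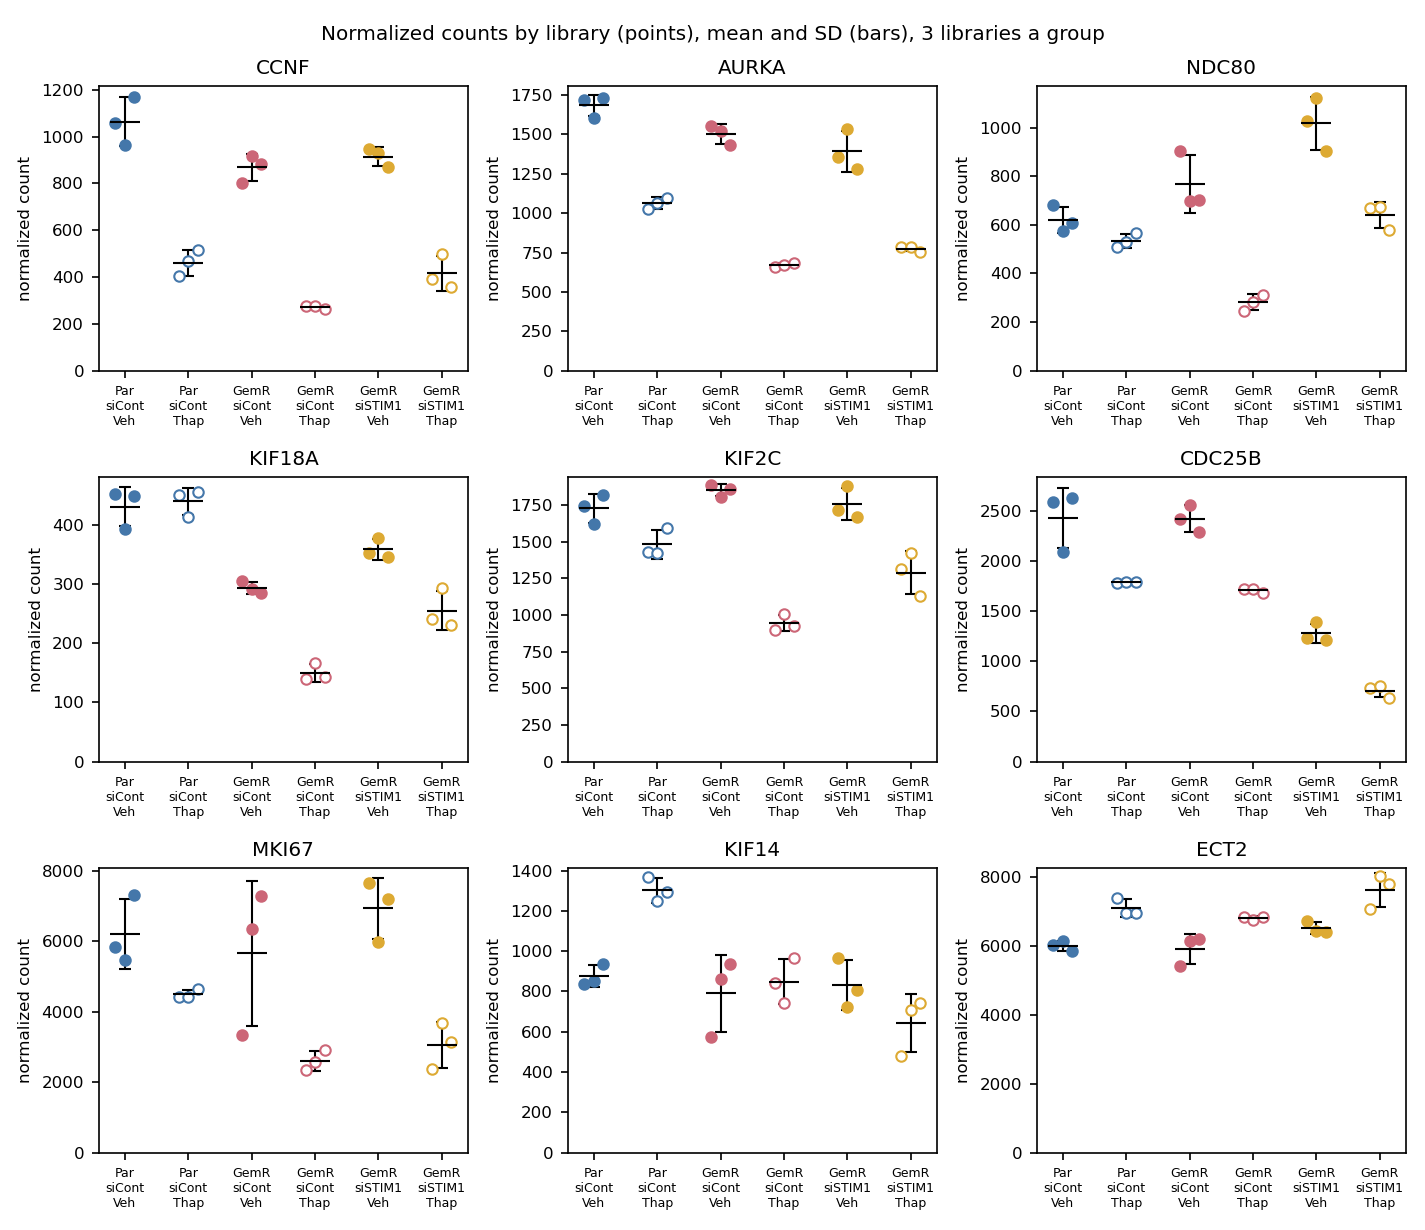
Normalized counts of 9 members in every library (points; filled, vehicle; open, thapsigargin), with the mean and SD of the 3 libraries of each group (bars), for Par (blue), GemR siCont (red) and GemR siSTIM1 (yellow). NDC80, KIF18A and KIF2C reach their lowest level in GemR siCont with thapsigargin, CDC25B in GemR siSTIM1 with thapsigargin, and ECT2 is higher with thapsigargin than with vehicle in each arm.

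Among spindle and cytokinesis proteins 1 gene rose throughout. Of the 7 members, 3 fell in Par and, within GemR, 5 with siCont and 6 with siSTIM1. ECT2, the exchange factor that turns on RhoA at the cleavage furrow, read 6017, 6136 and 5838 with vehicle and 7401, 6939.8 and 6965 with thapsigargin in Par. It read 5401, 6138 and 6189.6 with vehicle and 6836, 6761 and 6837 with thapsigargin in GemR siCont and 6724, 6428 and 6389 with vehicle and 7067, 8010.2 and 7799 with thapsigargin in GemR siSTIM1. All thapsigargin libraries lay above all vehicle libraries of their arm, yet the rise was small, at 0.24 ± 0.06 in Par and, within GemR, 0.21 ± 0.06 for siCont and 0.23 ± 0.06 for siSTIM1 (adjusted p = 0.00398, 0.0140 and 0.0107). With quantile normalization the adjusted p was 0.411, 0.171 and 0.422, and the call was also lost at adjusted p = 0.0535 without GemR siCont vehicle replicate 1 in GemR siCont and at adjusted p = 0.0561 without GemR siSTIM1 thapsigargin replicate 2 in GemR siSTIM1. TPX2, the activator of Aurora A, read 5483, 5176 and 5509 with vehicle and 5176, 5238 and 5543 with thapsigargin in Par, overlapping and not past the threshold (-0.02 ± 0.07), and in GemR siCont it fell from 4705, 4888 and 4923 to 2892, 3296 and 3195 (-0.63 ± 0.07, adjusted p = 2.8e-07). It fell in GemR siSTIM1 as well (-0.35 ± 0.07). HMMR, a spindle pole protein, fell in both GemR arms (-0.49 ± 0.08 and -0.62 ± 0.08) and was at -0.10 ± 0.08 in Par. PRC1, the crosslinker of the central spindle, did the same (-0.27 ± 0.07 and -0.28 ± 0.07; -0.14 ± 0.07 in Par), but its GemR siCont value was at adjusted p = 0.0508 when only the libraries compared were fitted. CKAP2 and DLGAP5, which bind spindle microtubules, fell in all 3 arms. CKAP2 was at -0.38 ± 0.08 in Par and, within GemR, -0.69 ± 0.08 for siCont and -0.66 ± 0.08 for siSTIM1, and DLGAP5 at -0.47 ± 0.07 in Par and, within GemR, -0.68 ± 0.07 for siCont and -0.56 ± 0.07 for siSTIM1. NUSAP1, another microtubule-binding protein, fell in Par (-0.25 ± 0.06) and GemR siSTIM1 (-0.38 ± 0.06) and was at -0.15 ± 0.06 in GemR siCont (adjusted p = 0.0647).

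Of the 2 genes of chromosome structure, MKI67 fell in both GemR arms and TOP2A in the siSTIM1 arm. MKI67 (Ki-67), which coats mitotic chromosomes and is used as a proliferation marker, read 5828, 5461 and 7317 with vehicle and 4421, 4418 and 4635 with thapsigargin in Par, a difference that did not pass (-0.45 ± 0.21, adjusted p = 0.0868). In GemR siCont it read 3329, 6347 and 7279 with vehicle and 2334, 2567 and 2899 with thapsigargin. The siSTIM1 libraries read 7641, 5962 and 7189 with vehicle and 2362, 3666 and 3131 with thapsigargin. The vehicle value of 3329 in GemR siCont came from replicate 1, and the thapsigargin value of 2362 in GemR siSTIM1 from replicate 1, the libraries that stood apart by transcript length, and MKI67 has the longest transcript of the members (12678 nt). MKI67 was 2.07-fold lower with thapsigargin in GemR siCont (-1.05 ± 0.21, adjusted p = 5.4e-04) and 2.29-fold lower in GemR siSTIM1 (-1.20 ± 0.21, adjusted p = 1.9e-04), without overlap, and both calls held whichever library of the groups compared was left out. TOP2A, topoisomerase II alpha, was at -0.05 ± 0.10 in Par and -0.02 ± 0.10 in GemR siCont, and fell in GemR siSTIM1 (-0.48 ± 0.10, adjusted p = 9.7e-04) from 9449, 8852 and 8625 to 5497, 7321 and 6568. The lowest of these, 5497, came from replicate 1 of GemR siSTIM1 with thapsigargin, without which the fold change was -0.37 for TOP2A (adjusted p = 0.0075) and -1.02 for MKI67 (adjusted p = 0.00181). In GemR siCont TOP2A read 7035 to 9434 with vehicle and 7939 to 8656 with thapsigargin. The GemR siCont responses of both genes without vehicle replicate 1 are not given here. The difference in response between siSTIM1 and siCont passed the threshold for neither gene, so the sizes of the falls are not ranked between these arms.

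Whether GemR and Par responded differently was tested directly, as the difference of the 2 thapsigargin responses. It was below 0 and past the threshold for 11 members and above 0 for 0, where 7.66% of all genes were lower and 7.14% higher, and its median over the members was -0.20. NDC80 differed most, at -1.23 ± 0.16 (adjusted p = 2.3e-05), followed by KIF18A at -1.0 ± 0.14 (5.5e-05), CENPA at -0.82 ± 0.14 (3.7e-04) and KIF2C at -0.75 ± 0.11 (1.3e-04). The highest NDC80 count in GemR siCont with vehicle, 905, came from replicate 1, which stood apart by transcript length. With each library of the groups compared left out in turn, 10 of the 11 calls, that of NDC80 among them, were kept every time. The difference was below 0 for the Aurora A pair TPX2 (-0.61 ± 0.09) and AURKA (-0.50 ± 0.10), and for TTK (-0.51 ± 0.11), KIF23 (-0.46 ± 0.10), CDCA8 (-0.42 ± 0.10) and KIF4A (-0.42 ± 0.09), with adjusted p from 1.2e-04 to 0.00551 over these 6. Of these 6, AURKA and CDCA8 also fell in Par, and the other 4 did not pass there. HMMR was at -0.39 ± 0.12, adjusted p = 0.0314, and the call was lost at adjusted p = 0.0554 to 0.0914 without any 1 of Par vehicle replicates 2 and 3, Par thapsigargin replicates 2 and 3, GemR siCont vehicle replicates 2 and 3 and GemR siCont thapsigargin replicates 1 and 3. By role, kinesins held 4 of the 11 and the CDK1 and cyclin genes 0, with -0.46 ± 0.16 for CCNF (adjusted p = 0.0557) and -0.05 ± 0.10 for CDK1. The count was 18 (17 lower and 1 higher) without replicate 1 of GemR siCont with vehicle, and 20 (19 lower and 1 higher) without that library and replicate 1 of GemR siSTIM1 with thapsigargin, the libraries that stood apart by transcript length. The shares of all genes called in those fits are not given here, so the rise is not read as particular to the members. Spearman rho of the difference with transcript length was -0.139 over the members and -0.0489 over 12419 genes. Without replicate 1 of GemR siCont with vehicle these were farther from 0, at -0.316 and -0.254. The part of transcript length in these counts was not tested.

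**Figure D4:**
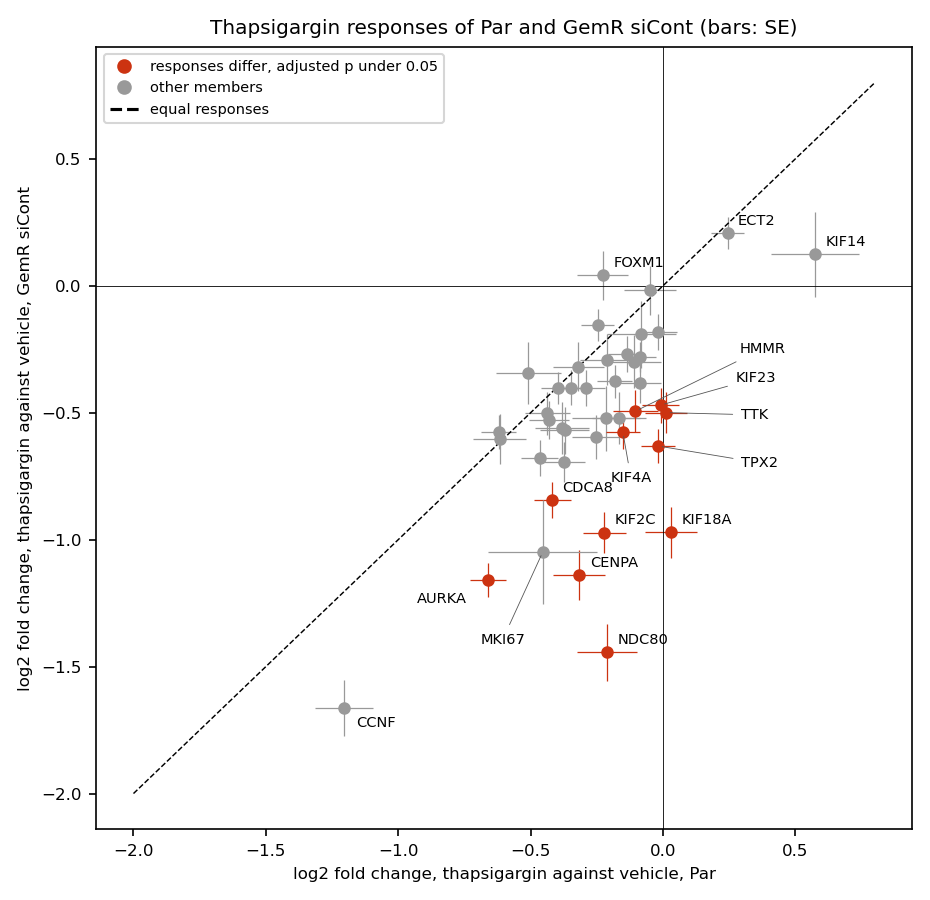
Log2 fold change with thapsigargin against vehicle in Par (horizontal) and GemR siCont (vertical) for the 42 members, with standard errors. Points on the dashed line responded equally in both; the 11 red points, whose responses differed at an adjusted p under 0.05, all lie under it, NDC80 and KIF18A farthest.

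Without thapsigargin 11 of the members differed between GemR and Par, 7 without replicate 3 of Par with vehicle and 5 when only the libraries compared were fitted. In vehicle 6 members were higher and 5 lower in GemR siCont, against 18.1% and 20.1% of all genes, and the median was -0.08 (all genes 0.00367). The libraries did not overlap for 17 of the 42 members, where 43.4% of all genes were separated. CDCA8 read 1601, 1663 and 1765 in Par and 972, 1047 and 1053 in GemR siCont, 1.64-fold lower (-0.71 ± 0.07, adjusted p = 1.7e-07). KIF18A read 452, 392 and 448 and 305, 291 and 285 (-0.55 ± 0.10, adjusted p = 2.3e-04). Both sets of libraries were apart, and the falls of CDCA8, KIF18A and CDC20 (-0.25 ± 0.07) held with any library left out. CDC25C (340.1, 303 and 294 in Par, 491, 419 and 428 in GemR siCont; 0.51 ± 0.10, adjusted p = 3.2e-04) and HMMR (0.49 ± 0.08) were higher and held likewise. The other calls were lost when a library was left out. CCNF (-0.29 ± 0.11) was lost at adjusted p = 0.0587 to 0.189 without any 1 of Par vehicle replicates 1 and 3 and GemR siCont vehicle replicates 1 and 3, and TOP2A (-0.31 ± 0.10) at adjusted p = 0.065 to 0.0735 without any 1 of Par vehicle replicate 1 and GemR siCont vehicle replicate 1. PTTG1 (0.40 ± 0.12) was lost at adjusted p = 0.0682 to 0.0747 without any 1 of Par vehicle replicate 3 and GemR siCont vehicle replicate 1, and CDCA3 (0.35 ± 0.10) at adjusted p = 0.0549 without Par vehicle replicate 2. NDC80 (0.30 ± 0.11) was lost at adjusted p = 0.106 to 0.199 without any 1 of Par vehicle replicates 2 and 3 and GemR siCont vehicle replicate 1, and CKAP2 (0.23 ± 0.08) at adjusted p = 0.0527 to 0.117 without any 1 of Par vehicle replicates 2 and 3 and GemR siCont vehicle replicates 2 and 3. Without GemR siCont vehicle replicate 1, NDC80 was at 0.18, PTTG1 at 0.21 and TOP2A at -0.19.

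Under thapsigargin 31 of the members differed between the lines. There 26 members were lower and 5 higher in GemR siCont than in Par, against 25.0% and 23.2% of all genes, with a median of -0.25. The lines did not overlap for 38 members, and for 64.8% of all genes. This comparison shares its libraries with the responses above. KIF18A read 449.5, 413 and 454 in Par and 140.1, 166 and 143 in GemR siCont, 2.93-fold lower (-1.55 ± 0.10, adjusted p = 3.1e-10). CDCA8 was 2.20-fold lower (-1.14 ± 0.07, adjusted p = 1.5e-10), CENPA 2.02-fold (-1.02 ± 0.10, adjusted p = 8.7e-08) and NDC80 1.91-fold (-0.93 ± 0.11, adjusted p = 1.6e-06), all without overlap. The 5 higher members were PTTG1 (0.56 ± 0.12), CDC25C (0.51 ± 0.10), CDCA3 (0.36 ± 0.10), FOXM1 (0.31 ± 0.10) and NUSAP1 (0.20 ± 0.06). FOXM1 was lost at adjusted p = 0.0682 without GemR siCont thapsigargin replicate 2 and NUSAP1 at adjusted p = 0.0522 without GemR siCont thapsigargin replicate 2. With each library left out in turn, 18 of the 26 falls kept their call every time.

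With STIM1 knocked down in GemR, the share of members called in vehicle was near that of all genes, and 26 of the 42 did not pass. In vehicle 5 were higher and 11 lower in siSTIM1 than in siCont, against 20.9% and 21.1% of all genes, with a median of -0.06. The groups did not overlap for 23 members, and for 47.0% of all genes. With quantile normalization the split was 10 higher and 11 lower, and with median-centred libraries 4 higher and 15 lower. It was 1 higher and 7 lower when only the libraries compared were fitted, and 2 higher and 8 lower without replicate 1 of GemR siSTIM1 with vehicle. CDC25B read 2419, 2553 and 2287 in siCont and 1230.1, 1389 and 1216 in siSTIM1, 1.89-fold lower without overlap (-0.92 ± 0.08, adjusted p = 1.1e-07). The other cyclin and CDC25 genes that were lower were CCNB1 (-0.40 ± 0.07), CDC25C (-0.36 ± 0.10) and CCNA2 (-0.33 ± 0.07), and PTTG1 (-0.55 ± 0.12), AURKB (-0.47 ± 0.10), CENPA (-0.37 ± 0.10) and PLK1 (-0.23 ± 0.06) were lower too, and these 8 kept their calls with any library left out. With only the libraries compared in the fit, PLK1 (adjusted p = 0.0519) and CKAP2 did not pass. PTTG1 read 3553, 2493 and 2379 in siCont, highest in replicate 1, and 1868, 2100.2 and 1702 in siSTIM1. NDC80 was higher (0.41 ± 0.11, adjusted p = 0.00715) with siCont at 905, 699 and 701 and siSTIM1 at 1025, 1123 and 905, which met at 905, and CKAP2 was higher at 0.28 ± 0.08. The remaining calls were lost on leaving out a library. KIF18A (0.29 ± 0.10) was lost at adjusted p = 0.0531 to 0.093 without any 1 of GemR siCont vehicle replicates 2 and 3 and GemR siSTIM1 vehicle replicates 1 and 2. TPX2 (0.18 ± 0.07) was lost at adjusted p = 0.0509 to 0.144 without any 1 of GemR siCont vehicle replicates 1 and 2 and GemR siSTIM1 vehicle replicates 1 and 2, and HMMR (0.21 ± 0.08) at adjusted p = 0.0646 to 0.198 without any 1 of GemR siCont vehicle replicates 1 and 2 and GemR siSTIM1 vehicle replicates 1 and 2. Of the lower ones, KIF20A (-0.29 ± 0.09) was lost at adjusted p = 0.0611 to 0.0738 without any 1 of GemR siCont vehicle replicate 3 and GemR siSTIM1 vehicle replicates 1 and 3, NUF2 (-0.30 ± 0.10) at adjusted p = 0.089 to 0.146 without any 1 of GemR siCont vehicle replicate 1 and GemR siSTIM1 vehicle replicates 1 and 3, and DLGAP5 (-0.19 ± 0.07) at adjusted p = 0.0745 to 0.161 without any 1 of GemR siCont vehicle replicates 1 and 2 and GemR siSTIM1 vehicle replicates 1 and 3. Without GemR siCont vehicle replicate 1 NUF2 was at -0.18. Over the 42 members the difference in vehicle was higher for longer transcripts (Spearman rho = 0.557, and 0.326 over 12419 genes), and without replicate 1 of GemR siCont with vehicle rho was 0.352 (0.163 over all genes). These members share the libraries, and the part of transcript length in the single differences was not tested.

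**Figure D5:**
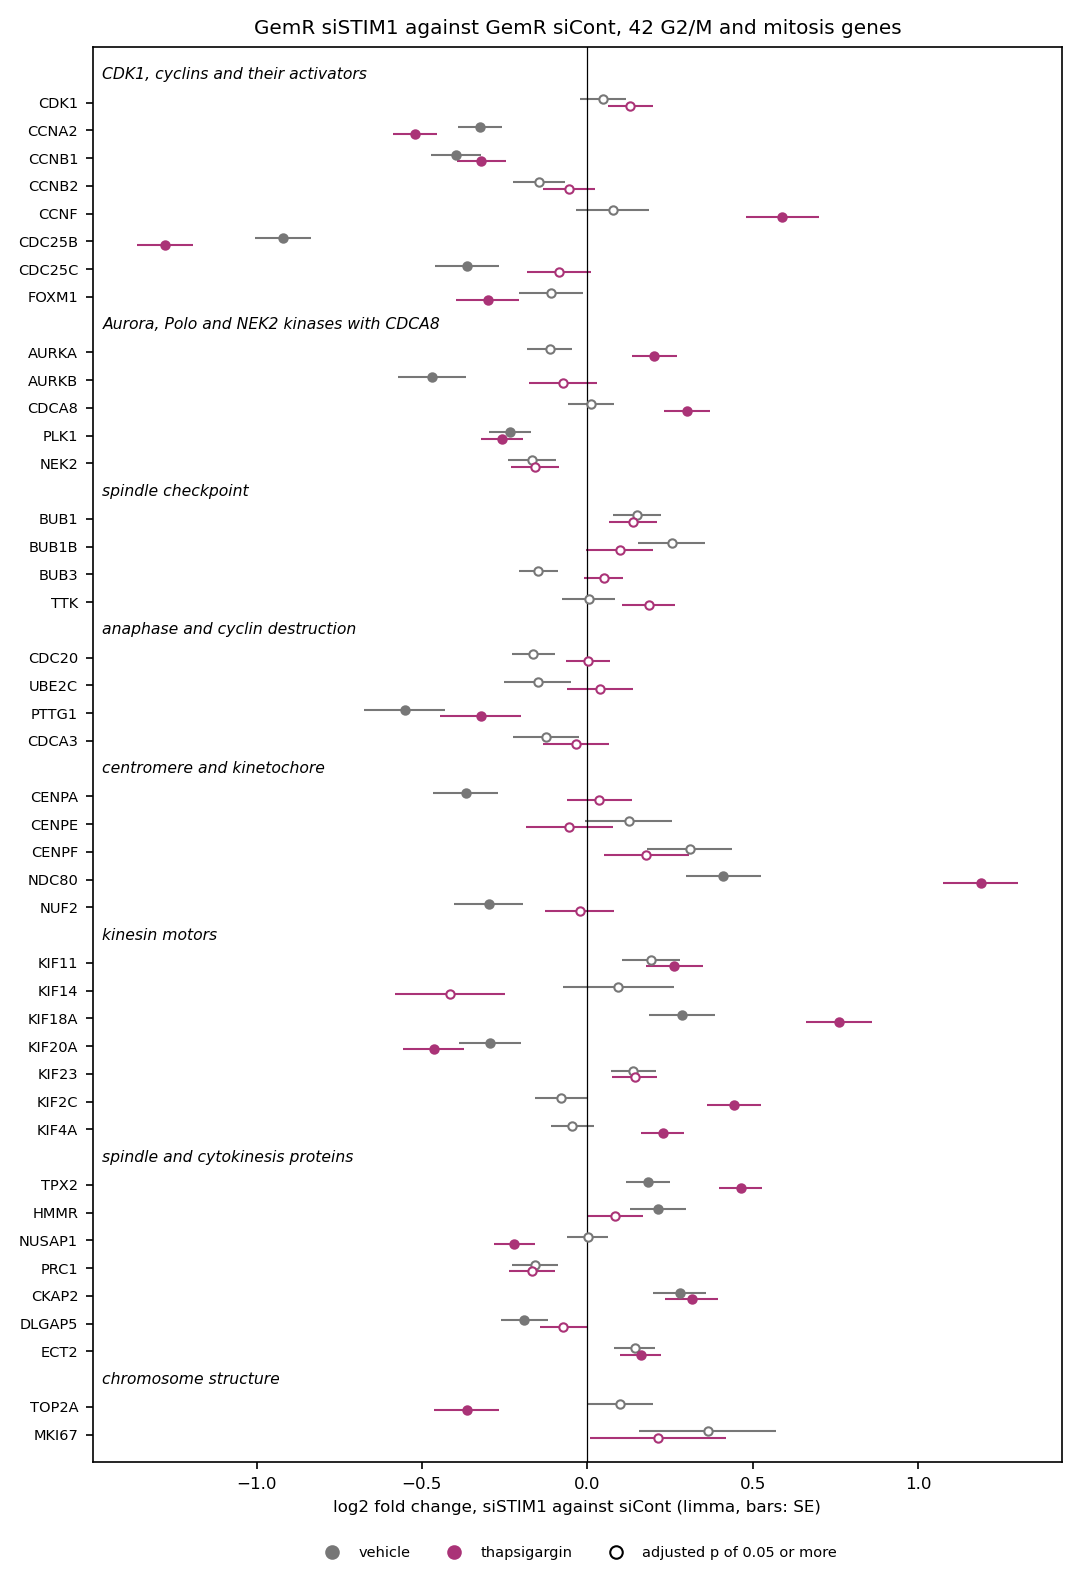
Log2 fold change of GemR siSTIM1 against GemR siCont for each member, in vehicle (grey) and under thapsigargin (purple), with standard errors; open points had an adjusted p of 0.05 or more. CDC25B lies farthest left in both treatments and NDC80 farthest right under thapsigargin.

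Under thapsigargin 11 members were higher and 9 lower in siSTIM1 than in siCont, against 17.7% and 18.9% of all genes, and the split was 15 higher and 7 lower with quantile normalization. Here too 23 members did not overlap, against 49.8% of all genes. NDC80 read 247, 283 and 313 in siCont and 670.1, 672 and 579 in siSTIM1, 2.28-fold higher without overlap (1.19 ± 0.11, adjusted p = 1.2e-07). KIF18A (0.76 ± 0.10), CCNF (0.59 ± 0.11), TPX2 (0.46 ± 0.07), KIF2C (0.44 ± 0.08), CKAP2 (0.32 ± 0.08) and CDCA8 (0.30 ± 0.07) were higher with any library left out. CDC25B was again lower, at 1722, 1715 and 1678 in siCont and 730.4, 749.5 and 634 in siSTIM1 (2.42-fold, -1.28 ± 0.08, adjusted p = 9.8e-10), and so were CCNA2 (-0.52 ± 0.07), KIF20A (-0.46 ± 0.09), TOP2A (-0.36 ± 0.10), CCNB1 (-0.32 ± 0.07) and PLK1 (-0.26 ± 0.06). The calls of AURKA (0.20 ± 0.07), KIF11 (0.26 ± 0.09), KIF4A (0.23 ± 0.07), ECT2 (0.16 ± 0.06), FOXM1 (-0.30 ± 0.10), NUSAP1 (-0.22 ± 0.06) and PTTG1 (-0.32 ± 0.12) were each lost on leaving out at least 1 library. AURKA was lost at adjusted p = 0.0539 to 0.0816 without any 1 of GemR siCont thapsigargin replicates 1 and 2 and GemR siSTIM1 thapsigargin replicates 1 and 2, and KIF4A at adjusted p = 0.0634 without GemR siCont thapsigargin replicate 1. KIF11 was lost at adjusted p = 0.0508 to 0.169 without any 1 of GemR siCont thapsigargin replicate 1 and GemR siSTIM1 thapsigargin replicates 2 and 3. Without GemR siSTIM1 thapsigargin replicate 2 KIF11 was at 0.16. FOXM1 was lost at adjusted p = 0.0555 to 0.101 without any 1 of GemR siCont thapsigargin replicate 2 and GemR siSTIM1 thapsigargin replicates 1 and 3, and NUSAP1 at adjusted p = 0.0503 without GemR siSTIM1 thapsigargin replicate 1. ECT2 was lost at adjusted p = 0.0962 to 0.186 without any 1 of GemR siCont thapsigargin replicates 1, 2 and 3 and GemR siSTIM1 thapsigargin replicates 2 and 3, and PTTG1 at adjusted p = 0.0684 to 0.173 without any 1 of GemR siCont thapsigargin replicates 1, 2 and 3 and GemR siSTIM1 thapsigargin replicates 2 and 3.

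The thapsigargin response itself differed between siSTIM1 and siCont for 2 members, both lowered less in siSTIM1, against 1.50% of all genes higher and 2.90% lower. NDC80 differed by 0.78 ± 0.16 (adjusted p = 0.00726) and KIF2C by 0.52 ± 0.11 (adjusted p = 0.0120), and both passed with any library left out. For KIF18A the difference was 0.48 ± 0.14 (adjusted p = 0.0632), for CCNF 0.51 ± 0.16 (adjusted p = 0.0684) and for AURKA 0.32 ± 0.10 (adjusted p = 0.0679), none past the threshold. NDC80 and KIF2C are also among the 11 members whose response differed between GemR siCont and Par. Both differences contain the GemR siCont libraries, with opposite sign, so they share samples. The count rose to 6 without replicate 3 of GemR siCont with vehicle (5 higher and 1 lower) and to 6 without replicate 3 of GemR siSTIM1 with thapsigargin (6 higher). The shares of all genes called in those fits are not given here.

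Other genes of the same machinery, taken from lists made with earlier results of these data known, were read beside the members. Of 30 centrosome, spindle and cytokinesis genes, 17 fell and 1 rose in Par, and 22 fell and 0 rose in each GemR arm. Of all genes tested 19.7% fell and 20.5% rose in Par, 15.8% and 17.9% in GemR siCont, and 11.9% and 12.5% in GemR siSTIM1. PSRC1, a microtubule-binding protein, fell at -1.27 ± 0.10 in Par and, within GemR, -1.61 ± 0.10 for siCont and -1.10 ± 0.10 for siSTIM1. The depolymerising kinesin KIF18B fell at -1.03 ± 0.12 in Par and, within GemR, -1.43 ± 0.12 for siCont and -0.98 ± 0.12 for siSTIM1. FAM83D, which targets a casein kinase to the spindle, fell at -0.82 ± 0.08 in Par and, within GemR, -1.18 ± 0.08 for siCont and -1.02 ± 0.08 for siSTIM1. Of 35 further kinetochore and checkpoint subunits, 13 fell and 4 rose in Par, 20 fell and 1 rose in GemR siCont, and 12 fell and 1 rose in GemR siSTIM1. HJURP, the chaperone of CENPA, fell at -0.42 ± 0.07 in Par and, within GemR, -1.49 ± 0.07 for siCont and -0.59 ± 0.07 for siSTIM1. Its response differed between GemR siCont and Par (-1.07 ± 0.10, adjusted p = 6.1e-07) and between siSTIM1 and siCont (0.90 ± 0.10, adjusted p = 2.4e-05). MIS12, a kinetochore subunit, rose in every arm, at 2.17 ± 0.06 in Par and, within GemR, 1.48 ± 0.06 for siCont and 1.53 ± 0.06 for siSTIM1. Whether its counts hold reads of an overlapping gene was not looked up. Of 17 subunits and regulators of the anaphase-promoting complex, 6, 5 and 2 fell in the 3 arms and 1, 0 and 0 rose. Its inhibitor FBXO5 (EMI1) fell in GemR siCont (-0.87 ± 0.08, adjusted p = 7.4e-08), and its response differed from that in Par (-0.63 ± 0.12, adjusted p = 8.3e-04). In siSTIM1 against siCont with vehicle, 10 of these 17 were lower and 0 higher, against 21.1% and 20.9% of all genes, among them UBE2S (-0.72 ± 0.12) and CDC23 (-0.69 ± 0.07).

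Genes that hold back or switch on the step from G2 to M moved in both directions. Of 20 tested G2 brakes and mitotic entry switches, 6 rose and 7 fell in Par, 6 rose and 6 fell in GemR siCont, and 5 rose and 4 fell in GemR siSTIM1. Their median log2 fold changes were -0.135, -0.024 and -0.030, and the lowest values -0.75, -1.23 and -0.70. The genes of this list named below each rose in at least 1 arm, so they do not describe the list as a whole. Over all genes 20.5% rose and 19.7% fell in Par, 17.9% and 15.8% in GemR siCont, and 12.5% and 11.9% in GemR siSTIM1. GADD45A, a stress gene whose product inhibits CDK1 with cyclin B1, rose in each arm, at 2.76 ± 0.10 in Par and, within GemR, 1.59 ± 0.10 for siCont and 2.05 ± 0.10 for siSTIM1. CDKN1A, the CDK inhibitor p21, rose in each arm, at 1.77 ± 0.14 in Par and, within GemR, 2.32 ± 0.14 for siCont and 1.56 ± 0.14 for siSTIM1. The stress-induced Polo-like kinase PLK3 rose at 1.18 ± 0.09 in Par and, within GemR, 1.71 ± 0.09 for siCont and 0.87 ± 0.09 for siSTIM1. BTG2, an antiproliferative gene, rose in GemR siCont (1.29 ± 0.12, adjusted p = 8.4e-08) and was at -0.31 ± 0.12 in Par and -0.02 ± 0.12 in GemR siSTIM1, with a response that differed between GemR siCont and Par (1.60 ± 0.17, adjusted p = 2.6e-06) and between siSTIM1 and siCont (-1.31 ± 0.17, adjusted p = 1.2e-04).

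The authors' deposited tables of their own comparisons gave counts for the members close to those above at the same threshold. In the authors' deposited table for Par, 21 members were lower and 2 higher with thapsigargin. The authors' deposited tables had 36 lower and 1 higher in GemR siCont, and 32 lower and 1 higher in GemR siSTIM1. Counts for 8 members can hold reads of an overlapping expressed gene: CCNA2 (EXOSC9), CDC25C (FAM53C), FOXM1 (ITFG2 and RHNO1), CDCA3 (GNB3), CENPA (SLC35F6), KIF18A (METTL15), KIF20A (BRD8 and CDC23) and KIF4A (PDZD11). SLC35F6 lies on the same strand as CENPA, so the strand of a read would not separate them. The other overlapping genes lie on the opposite strand, and whether strand was used in counting is not given in the sources used here. Overlaps were looked up for the members only, not for genes of the other lists.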

How the data were processed

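The deposited table of 18 libraries holds normalized counts per gene, a signal whose values, as deposited, are whole reads divided by 1 factor per library. The authors' deposited tables give log2 fold changes, p-values and adjusted p-values of their own comparisons, per the file headers. Per the submitters' processing notes, reads were aligned to hg38 with STAR 2.6.0c and counted with HTSeq 0.11.1, and DESeq2 was used; per the labels' protocols libraries came from 500 ng of RNA. The 42 members and the gene lists were chosen with earlier results of these data known. Normalized counts were read as log2(normalized count + 1) and the 13096 of 26485 genes averaging 10 or more were fitted with limma 3.58.1 (R 4.3.3; trend; 1 model over the 6 groups, 12 residual degrees of freedom), with Benjamini-Hochberg adjusted p-values over all 13096 genes. In the deposited table, values were whole multiples of 1 step per library for 100% of positive values within 0.01 of a whole number, which gave reads of 8922439 to 16519239 per library for edgeR 4.0.16 and DESeq2 1.42.0 as alternatives. Replicate 3 of GemR siSTIM1 with vehicle, whose step of 0.993 was too near 1, was left out of those. Other alternatives were the pseudocount, filter, scaling, variance prior, libraries in the fit, each library of the groups compared left out, and a replicate block. The fit was tested on simulated data. All 42 members are named, and of each other list and comparison up to 3 called genes with the largest log2 fold changes among those averaging at least 50 normalized counts. Promoters came from RefSeq (GRCh38.p14), and lengths from GENCODE 29. FOXM1, AURKA, BUB3, UBE2C, TTK and TPX2 had no promoter entry matched. Figures were drawn with Python 3.11.15.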

Additional observations from a re-analysis of the deposited data

Results flagged for a closer look

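The thapsigargin response of 11 members differed between GemR siCont and Par by the test of the difference itself in limma. On the log2 scale, GemR siCont minus Par, the differences were -1.23 for NDC80, -1.0 for KIF18A, -0.824 for CENPA, -0.751 for KIF2C and -0.612 for TPX2. TTK followed at -0.511, AURKA at -0.496, KIF23 at -0.461, CDCA8 at -0.425, KIF4A at -0.425 and HMMR at -0.39. In each of the 11 genes the log2 fold change with thapsigargin was lower in GemR siCont.

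The response differed between siSTIM1 and siCont in GemR, by the same kind of test, for NDC80 (0.778, siSTIM1 minus siCont) and KIF2C (0.522), whose falls were smaller in siSTIM1.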

How the results depend on the processing

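No single gene of the members reversed its direction while called. Over the alternatives, 3336 member results kept their direction and side of the threshold, 219 were no longer past it and 166 came past it. edgeR and DESeq2 on recovered reads of 17 libraries called 23 and 23 members in Par, 36 and 37 in GemR siCont, and 31 and 33 in GemR siSTIM1. The library left out was replicate 3 of GemR siSTIM1 with vehicle, so the last counts rest on fewer vehicle libraries. Fitting only the libraries compared left 5 members called between GemR siCont and Par in vehicle (2 higher and 3 lower) and 8 between siSTIM1 and siCont in vehicle (1 higher and 7 lower). The difference in response between GemR siCont and Par was called for 18 members (1 higher and 17 lower) without replicate 1 of GemR siCont with vehicle, and for 20 (1 higher and 19 lower) without that library and replicate 1 of GemR siSTIM1 with thapsigargin. The difference in response between siSTIM1 and siCont was called for 4 members with median-centred libraries, for 4 (3 higher and 1 lower) with quantile normalization and for 4 without those 2 libraries. The members' median in Par was -0.304 with quantile normalization. For these changes the cause was not tested. The counts in this section are given without the share of all genes called at each setting, so their changes are not read as particular to the members.

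With 1 library of the groups compared left out at a time, the members called ranged from 18 to 24 in Par, 32 to 36 in GemR siCont and 30 to 32 in GemR siSTIM1. For GemR siCont against Par the range was 7 to 13 in vehicle (7 without replicate 3 of Par with vehicle) and 24 to 29 under thapsigargin. For siSTIM1 against siCont it was 10 to 22 in vehicle (10 without replicate 1 of GemR siSTIM1 with vehicle) and 15 to 20 under thapsigargin. For the differences in response it was 10 to 18 between GemR siCont and Par and 2 to 6 between siSTIM1 and siCont. The members' median ranged from -0.266 to -0.210 in Par, from -0.512 to -0.473 in GemR siCont and from -0.488 to -0.382 in GemR siSTIM1.

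With the replicate number as a block, the fit called 25 members in Par, 36 in GemR siCont, 33 in GemR siSTIM1, 12 and 31 between GemR siCont and Par in vehicle and under thapsigargin, 19 and 20 between siSTIM1 and siCont, and 11 and 2 for the differences in response. Of the calls reported without the block, that of ECT2 between siSTIM1 and siCont under thapsigargin was lost (adjusted p = 0.0554). Same-numbered libraries of different groups had correlations of their deviations from -0.177 to 0.491 over 45 pairs, with 9 over 0.1, so the numbers were not taken as a pairing.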

Other observations

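S phase and licensing genes also fell. Of 30 such genes, 25 fell in Par, 28 in GemR siCont and 25 in its siSTIM1 arm, and 1 rose in each, with medians of -0.47, -0.52 and -0.37. Of all genes tested, 19.7%, 15.8% and 11.9% fell and 20.5%, 17.9% and 12.5% rose in these arms, which holds for the lists of the next paragraph too. Cyclin E1 (CCNE1), the cyclin of the G1 to S step, was at -1.90 ± 0.14 in Par and, within GemR, -1.34 ± 0.14 for siCont and -1.32 ± 0.14 for siSTIM1, and UHRF1, which maintains DNA methylation at replication, at -1.35 ± 0.16 in Par and, within GemR, -1.13 ± 0.16 for siCont and -1.24 ± 0.16 for siSTIM1. The gene that rose was CDC6, a licensing factor, at 1.33 ± 0.05 in Par and, within GemR, 0.39 ± 0.05 for siCont and 0.64 ± 0.05 for siSTIM1. The difference in response between GemR siCont and Par was past the threshold for 2 of these 30, both lower, against 7.66% lower of all genes.

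Of 20 condensin and cohesin genes, 5, 9 and 7 fell in Par and in GemR with siCont and siSTIM1, and 3, 1 and 0 rose. SGOL2 (shugoshin 2), which guards centromeric cohesion, was at -0.40 ± 0.09 in Par and, within GemR, -1.03 ± 0.09 for siCont and -0.76 ± 0.09 for siSTIM1, with a response that differed between GemR siCont and Par (-0.63 ± 0.12, adjusted p = 0.00122). The condensin subunit NCAPG was at -0.33 ± 0.07 in Par and, within GemR, -0.71 ± 0.07 for siCont and -0.44 ± 0.07 for siSTIM1. Of 18 E2F, DREAM and MuvB genes, 10, 10 and 9 fell and 3, 3 and 1 rose. E2F2, an activating E2F, was at -1.81 ± 0.26 in Par and, within GemR, -2.44 ± 0.26 for siCont and -1.74 ± 0.26 for siSTIM1. The E2F repressor genes differed from each other: E2F8 fell, at -1.46 ± 0.18 in Par and, within GemR, -0.66 ± 0.18 for siCont and -1.03 ± 0.18 for siSTIM1, and E2F7 rose in Par (1.83 ± 0.16, adjusted p = 1.6e-08) and GemR siCont (1.07 ± 0.16, adjusted p = 2.1e-05) and was at 0.37 ± 0.16 in GemR siSTIM1 (adjusted p = 0.0930).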
